A study of Homo sapiens with 6 samples.

Results

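The genes of the enzymes that write and erase histone lysine methylation were examined in MDA-MB-231 cells with and without S-adenosylmethionine (SAM), the methyl donor that the writers consume. Members were the genes whose symbol in the platform annotation begins with KMT, SETD, SMYD, SUV39H, EHMT, EZH, NSD, PRDM or KDM followed by the number or letter of the family, or with a few other writer names, each through its transcript cluster with the highest mean signal. Of 14884 named genes on the array, 62 were members, matched by 65 transcript clusters. They comprised 38 genes counted as writers (11 of them PRDM genes), 19 KDM genes counted as erasers, and 5 noncoding transcripts. The noncoding transcripts (KDM4A-AS1, KMT2E-AS1, PRDM10-DT, PRDM16-DT and KDM7A-DT) lie antisense to or diverge from a gene of these families and belong to neither side. KDM5D, 1 of the erasers, lies on the Y chromosome and is counted without its values, so that values are given for 61 members and 18 erasers. DOT1L, SETDB1, SETDB2, ASH1L, SETMAR, SETD4, KMT2A, KMT2E and SETD1B carried no symbol in the annotation used and were not analysed here.

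Histone lysine methyltransferases move a methyl group from SAM to lysines of histones H3 and H4, most of them through a SET domain. Methylation of H3K4 and H3K36 is found at active genes, and that of H3K9, H3K27 and H4K20 at repressed chromatin. Demethylases reverse these marks by oxidation, KDM1A and KDM1B with FAD and the other KDM enzymes considered here with iron and 2-oxoglutarate in a JmjC domain. In breast cancer EZH2, KDM1A and the KDM4 and KDM5 families have been studied as regulators of cell state and as drug targets.

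Transcript levels were read with the Affymetrix Human Gene 2.0 ST platform in 3 cultures treated with 200 μM SAM and 3 Control cultures, labelled untreated, of this human breast cancer cell line, which is invasive and lacks hormone receptors. In the study's culture scheme SAM went into the regular medium every other day, starting on day 2. The day of collection for the arrays is not given in the sources used here. The study describes 3 independent experiments, and all cultures are of a single cell line. Values are log2 signal intensities after RMA normalization. The median signal was 4.83 to 4.85 in the SAM arrays and 4.75 to 4.83 in the Control arrays. Control replicate 1 stood somewhat apart, its correlation with the rest averaging 0.964, where the remaining arrays averaged 0.974 to 0.98. Of 16 markers listed for the line and for other cells, 10 were named on the array. The mesenchymal markers VIM, CD44, AXL and MSN had mean log2 signals of 7.90 to 11.51, whereas those of ESR1, PGR and FOXA1 lay between 4.12 and 5.09. The epithelial markers GATA3 and EPCAM (6.54) were brighter than these. So was PECAM1 (5.63), a marker of endothelium and the only named marker of other cells. Of these 10 markers, CD44 and ESR1 had an unadjusted P under 0.05 in limma (log2 fold changes 0.41 and 0.32), and their part in the results was not tested.

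No writer or eraser passed the study's thresholds, which ask for an unadjusted P under 0.01 together with a change of over 1.5-fold, in SAM-treated against Control cells. By limma's moderated test, 0 of 61 members were called in either direction, where 0.699% of the 14884 named genes and 1.09% of all 53617 transcript clusters were. At an unadjusted P under 0.05 there were 8 members, 0 higher and 8 lower in SAM-treated cells (13.1% of 61). Of all named genes 8.22% had such a P, with 2.64% of named genes higher and 5.58% lower. With trended and robust moderation the counts were 0 called and 9 at this P, which 8.54% of all transcript clusters reached. The lowest adjusted p of a member was 0.565 (Benjamini-Hochberg over all transcript clusters). In 18 of the 61 members (29.5%) the SAM arrays did not overlap the Control arrays, all 18 lying lower. Without overlap, 11.7% of named genes lay lower and 6.84% higher, and the lower share was larger in longer genes, as given below. For each of these 18 an exact permutation test gave p = 0.1 (two-sided), the smallest that 3 arrays against 3 allow. An array of a whole culture cannot tell less RNA in each cell from fewer cells that express the gene.

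SETD5 had the smallest P of all members. SETD5 encodes a SET domain protein of chromatin whose own methyltransferase activity is debated, and its loss of function causes intellectual disability. Its log2 signal was 7.17, 7.22 and 7.30 in SAM arrays 1 to 3, against 7.81, 7.68 and 7.68 in Control arrays 1 to 3. The lowest Control array thus lay above the highest SAM array, and the spread within each group was small (SAM 7.23 ± 0.068, Control 7.73 ± 0.076, SD, n = 3 each). The log2 fold change was -0.50 (SE 0.12, adjusted p = 0.565 in limma), or 1.41-fold lower in SAM-treated cells, short of the 1.5-fold minimum. It stayed between -0.53 and -0.45 whichever array was left out, with P under 0.05 in all 6 cases.

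KDM5C and KDM5A, demethylases of trimethylated H3K4, had the largest differences among the H3K4 erasers. For KDM5C, which lies on the X chromosome, the SAM arrays gave 5.45, 5.22 and 5.39 and the Control arrays 5.91, 5.68 and 5.76. The groups did not overlap (log2 fold change -0.43, SE 0.13, adjusted p = 0.575 in limma), and P stayed under 0.05 without any single array. For KDM5A, the founding member of this family, the SAM arrays gave 7.003, 7.022 and 6.787 and the Control arrays 7.581, 7.174 and 7.275, again without overlap (-0.41, SE 0.15, adjusted p = 0.604 in limma). Control replicate 1 was the highest array for both genes. Without it the log2 fold change of KDM5A was -0.29, with P above 0.05. The P of KDM5A stayed under 0.05 only without SAM replicate 2 or Control replicate 2. KDM5B, a family member often overexpressed in breast tumors, stood at -0.32 (SE 0.17), with 1 Control array (7.927) as low as the SAM arrays (7.934 to 7.996). Without that array, Control replicate 3, the KDM5B value was -0.50, with an unadjusted P under 0.05. KDM1A, the FAD-dependent H3K4 demethylase, gave 8.57, 8.56 and 8.66 in SAM arrays and 8.67, 8.74 and 8.68 in Control arrays. Its groups did not overlap either, but they were a small distance apart (-0.10, SE 0.12, 95% interval -0.37 to 0.17).

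The promoters of the member with the smallest P, of the pair of KDM5 genes and, for contrast, of KDM1A are given 5′ to 3′ from RefSeq (GRCh38.p14), each from 250 bases before to 50 bases after the start of the gene. They are at chr3:9397365-9397664, plus strand, for SETD5, chrX:53225158-53225457, minus strand, for KDM5C, chr12:389271-389570, minus strand, for KDM5A, and chr1:23019218-23019517, plus strand, for KDM1A. Capitals mark matches, searched on both strands, to the GC box spelled GGGCGG, to the box spelled CCAAT, to the ETS core spelled CCGGAA, to the E-box spelled CACGTG and to the TATA box spelled TATAAA.
SETD5: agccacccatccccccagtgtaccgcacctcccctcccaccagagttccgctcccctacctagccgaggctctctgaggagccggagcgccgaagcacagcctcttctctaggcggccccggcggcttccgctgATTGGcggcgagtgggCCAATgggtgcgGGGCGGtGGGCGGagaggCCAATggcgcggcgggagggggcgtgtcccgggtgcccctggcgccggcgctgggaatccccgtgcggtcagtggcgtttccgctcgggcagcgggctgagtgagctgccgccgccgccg
KDM5C: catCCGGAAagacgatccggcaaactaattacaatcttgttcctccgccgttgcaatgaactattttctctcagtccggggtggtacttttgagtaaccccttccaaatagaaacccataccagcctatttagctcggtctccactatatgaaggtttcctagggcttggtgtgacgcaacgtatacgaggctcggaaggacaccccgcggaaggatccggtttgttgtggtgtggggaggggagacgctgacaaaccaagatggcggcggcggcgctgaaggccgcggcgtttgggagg
KDM5A: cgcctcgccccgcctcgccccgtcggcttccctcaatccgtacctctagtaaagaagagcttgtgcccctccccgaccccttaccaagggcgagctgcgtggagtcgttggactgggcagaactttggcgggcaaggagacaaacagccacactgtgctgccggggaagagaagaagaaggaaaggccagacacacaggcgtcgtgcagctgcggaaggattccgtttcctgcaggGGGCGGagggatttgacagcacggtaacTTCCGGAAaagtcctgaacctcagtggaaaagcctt
KDM1A: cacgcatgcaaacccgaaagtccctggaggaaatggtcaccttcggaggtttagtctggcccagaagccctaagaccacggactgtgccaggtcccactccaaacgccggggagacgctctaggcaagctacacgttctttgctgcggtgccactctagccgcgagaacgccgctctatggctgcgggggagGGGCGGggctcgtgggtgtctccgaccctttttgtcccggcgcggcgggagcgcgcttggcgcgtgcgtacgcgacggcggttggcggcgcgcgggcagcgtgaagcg
The SETD5 window held 2 GC boxes and 3 CCAAT boxes, and that of KDM1A 1 GC box. KDM5C had 1 ETS core, and KDM5A had 1 GC box and 2 ETS cores that overlap each other on opposite strands. None of these 4 windows matched the E-box or the TATA box. CpG dinucleotides, the sites of DNA methylation, numbered 33, 22, 20 and 36 in the windows of SETD5, KDM5C, KDM5A and KDM1A. The table matched 34 of the 38 writers with 52 promoters and 17 of the 18 erasers with 23 promoters, NSD3, PRDM6, PRDM14, PRDM16 and KDM4E having none. The median number of CpG dinucleotides was 28 over writer promoters and 29 over eraser promoters, against 14 over all 35116 promoters. A GC box stood in 75% of writer promoters, 73.9% of eraser promoters and 45% of all promoters. In the same order the shares were 36.5%, 43.5% and 34.6% for CCAAT, 11.5%, 34.8% and 17.2% for the ETS core, 13.5%, 13% and 7.26% for the E-box, and 3.85%, 0% and 11.5% for the TATA box. These are matches of letters, and binding or DNA methylation was not measured on these arrays.

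Writers as a whole, PRDM and other SET proteins included, differed little between the groups and erasers somewhat more. The median log2 fold change of the 38 writers was -0.07 (24 negative, 14 positive), that of the 18 erasers was -0.27 (18 negative, 0 positive), and that of all named genes was -0.02 (54.2% negative). The writer median minus the eraser median was 0.20. Without the PRDM genes the 27 remaining writers had a median of -0.09, with 19 negative. Of the 14 positive writers, 6 were PRDM genes and 5 were other SET or MYND domain proteins. The writer classes assigned to a histone lysine had medians from -0.16 (H3K27) to -0.04 (H3K9). Groups did not overlap in 8 of 38 writers (21.1%) and 9 of 18 erasers (50%), all lying lower in SAM-treated cells. Without overlap, 11.7% of named genes lay lower and 6.84% higher. At an unadjusted P under 0.05 there were 4 writers (SETD5, NSD3, PRDM7 and KMT2C) and 4 erasers (KDM5C, KDM4B, KDM5A and KDM4C). These were 10.5% of writers and 22.2% of erasers, all lower in SAM-treated cells. Of named genes, 5.58% had such a P and were lower, and 8.22% had such a P in either direction. The members were chosen with results of these arrays known, and the difference between writers and erasers was given no test.

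**Figure D1:**
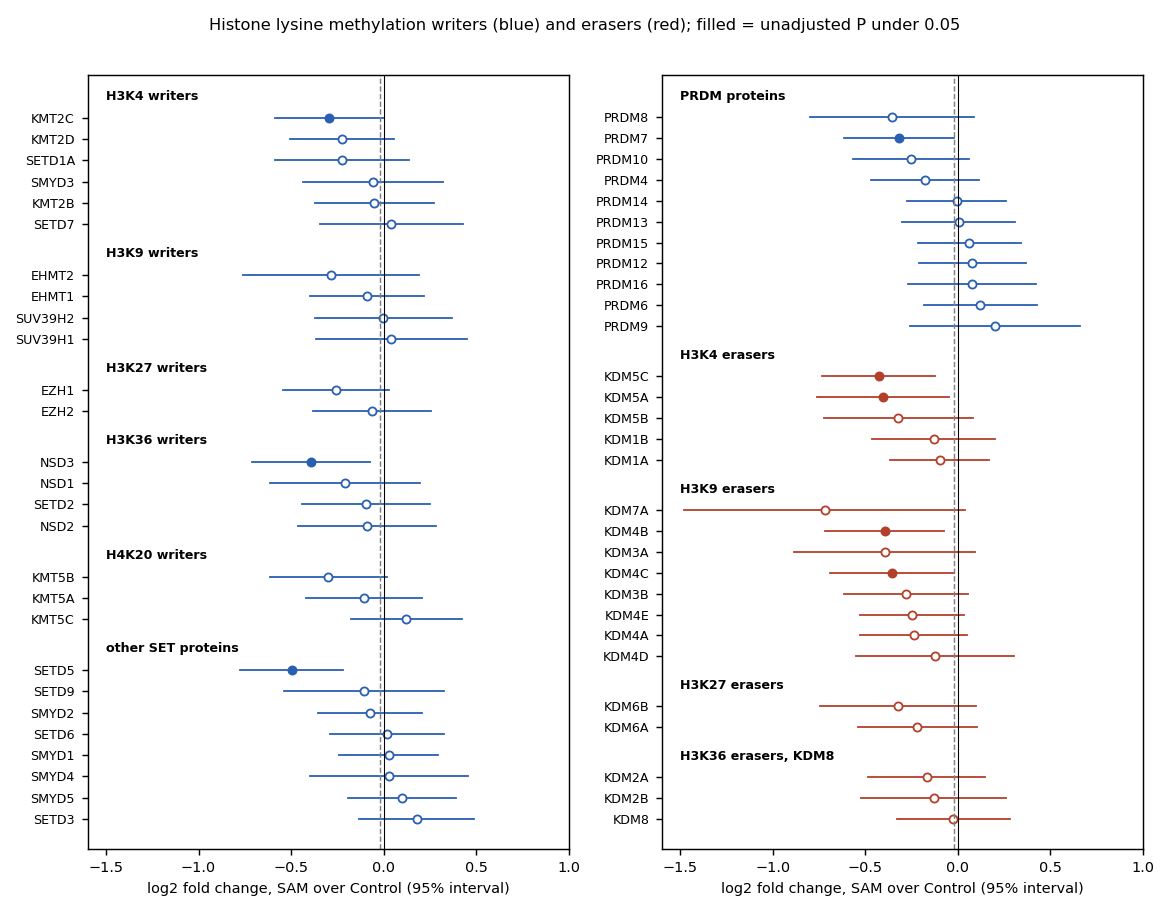
Log2 fold change (SAM over Control, x axis) of 38 writers (blue) and 18 erasers (red), grouped by the lysine they act on, with 95% intervals from limma (n = 3 arrays in each group); filled points have an unadjusted P under 0.05 and the dashed line is the median of named genes (-0.02). All 18 erasers lie left of 0, as do 24 of 38 writers, and only 8 points are filled.

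The level of the lists in each array was then compared as the median deviation of their genes from the gene's own mean over the 6 arrays. For writers this median was 0.01, -0.08 and -0.01 in SAM arrays 1 to 3, and 0.12, -0.02 and 0.05 in Control arrays 1 to 3. The groups overlapped, since Control replicate 2 lay below SAM replicate 1. For erasers it was -0.15, -0.10 and -0.16 in the SAM arrays, and 0.25, 0.10 and 0.07 in the Control arrays. Here each Control array lay above each SAM array, and Control replicate 1 was the highest, as it was for writers. For named genes as a whole each Control array also lay above each SAM array, on a smaller scale, with -0.0116, -0.0248 and -0.00421 in the SAM arrays and 0.0387, 0.00771 and 0.00165 in the Control arrays. Without Control replicate 1 the median log2 fold change was -0.03 for writers and -0.22 for erasers, and 17 of 18 erasers were negative. In that fit 3 of 61 members (KDM5C, KDM6A and SETD5) had a P under 0.05, beside 6.57% of all transcript clusters.

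**Figure D2:**
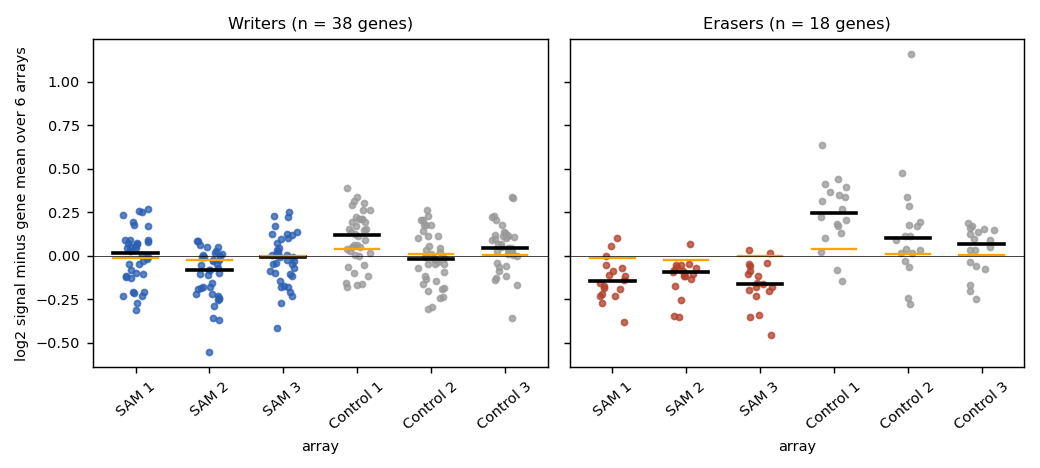
Deviation of each gene's log2 signal from its mean over 6 arrays (y axis) by array (x axis), for 38 writers and 18 erasers; points are genes (SAM arrays coloured, Control arrays grey), black bars the list's median and orange bars the median of all named genes. The eraser medians are -0.16 to -0.10 in SAM arrays and 0.07 to 0.25 in Control arrays, whereas the writer medians of the groups overlap.

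Among the H3K9 enzymes all erasers had negative values, and 3 of the 4 writers lay within 0.1 of 0. All 8 H3K9 erasers with values had a negative log2 fold change (median -0.32), and in 6 of them the groups did not overlap, all 6 lying lower, beside 11.7% of named genes lying lower without overlap. KDM4B and KDM4C remove methyl groups from H3K9 and H3K36. KDM4B gave 5.86, 6.14 and 6.12 in SAM arrays against 6.55, 6.35 and 6.40 in Control arrays (log2 fold change -0.40, SE 0.14, adjusted p = 0.584 in limma). KDM4C gave 5.35, 5.33 and 5.31 in SAM arrays against 5.90, 5.68 and 5.47 in Control arrays (-0.36, SE 0.14, adjusted p = 0.620 in limma). Both sets of Control arrays lay above all SAM arrays. The P of KDM4B rose above 0.05 without SAM replicate 1 or Control replicate 1. The Control values of KDM4C were widely spread, and only without Control replicate 3 did its P stay under 0.05. KDM4A, their closest relative, had a log2 fold change of -0.24 (SE 0.12). KDM3A and KDM3B, which act on mono- and dimethylated H3K9, had log2 fold changes of -0.40 (SE 0.21) and -0.28 (SE 0.14). KDM4D and KDM4E, similar copies that the probes may not separate, had -0.12 (SE 0.18) and -0.25 (SE 0.12), with a mean signal of 4.01 for KDM4E, below the array medians.

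KDM7A, a demethylase of H3K9 and H3K27, had the largest fold of all members (1.65-fold lower), and is described here because of that value. Its signal was 5.27, 5.20 and 5.09 in SAM arrays against 5.71, 6.70 and 5.30 in Control arrays. Control replicate 2 stood far above the other Control arrays (log2 fold change -0.72, SE 0.33, adjusted p = 0.639 in limma), and without it the log2 fold change was -0.32. Of the 4 H3K9 writers none had groups that did not overlap, and their median was -0.04. EHMT2 (G9a), which mono- and dimethylates H3K9, gave 7.21, 7.05 and 7.33 in SAM arrays and 7.73, 7.04 and 7.67 in Control arrays (-0.28, SE 0.20). Control replicate 2 lay as low as the SAM arrays, and without it the log2 fold change was -0.50, with an unadjusted P under 0.05. The EHMT2 values were shared by 4 further transcript clusters. EHMT1, its partner, had -0.09 (SE 0.13), and SUV39H1 and SUV39H2, which trimethylate H3K9 in heterochromatin, had 0.04 (SE 0.18) and 0.00 (SE 0.16). The dimmer transcript cluster of SUV39H1 gave -0.33 (SE 0.21).

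Of the 6 H3K4 writers with values, which do not include KMT2A, KMT2E and SETD1B, 5 had a negative log2 fold change (median -0.14). KMT2C and KMT2D (MLL3 and MLL4) monomethylate H3K4 at enhancers, and KMT2C is among the genes often mutated in breast cancer. KMT2C gave 8.09, 8.27 and 8.09 in SAM arrays against 8.51, 8.47 and 8.34 in Control arrays (-0.29, SE 0.13, adjusted p = 0.625 in limma). KMT2D gave 6.57, 6.69 and 6.73 in SAM arrays against 6.93, 6.82 and 6.91 in Control arrays (-0.22, SE 0.12). Groups did not overlap for either gene, and KMT2C kept a P under 0.05 only without SAM replicate 2. SETD1A, the catalytic subunit of a COMPASS complex, had -0.22 (SE 0.16), whereas KMT2B, SMYD3 and SETD7 lay between -0.06 and 0.04.

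The H3K27 enzymes showed no member at an unadjusted P under 0.05. EZH2, the main catalytic subunit of Polycomb repressive complex 2, gave 8.34, 7.98 and 8.10 in SAM arrays and 8.21, 8.19 and 8.21 in Control arrays. The Control values lay inside the range of the SAM values (log2 fold change -0.06, SE 0.14, 95% interval -0.38 to 0.25), and without SAM replicate 2 the sign turned (0.016). EZH1, its less active paralog, gave 6.84, 6.83 and 6.76 in SAM arrays against 7.15, 7.11 and 6.94 in Control arrays (-0.26, SE 0.12), without overlap. The opposing demethylases KDM6B (JMJD3) and KDM6A (UTX) had log2 fold changes of -0.32 (SE 0.18) and -0.22 (SE 0.14). KDM6B overlapped between groups, with 6.32, 6.50 and 6.35 in SAM arrays and 6.73, 7.02 and 6.38 in Control arrays. The KDM6B value depended on the Control arrays, with -0.49 and an unadjusted P under 0.05 without Control replicate 3 and -0.17 without Control replicate 2. KDM6A gave 6.41, 6.53 and 6.48 in SAM arrays against 6.50, 6.87 and 6.71 in Control arrays, also overlapping, and without Control replicate 1 its value was -0.31, with an unadjusted P under 0.05.

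All 4 H3K36 writers had a negative log2 fold change (median -0.15), and only NSD3 had a P under 0.05. NSD3, a dimethyltransferase amplified in some breast cancers, gave 6.98, 6.74 and 6.98 in SAM arrays against 7.41, 7.30 and 7.16 in Control arrays (-0.39, SE 0.14, adjusted p = 0.584 in limma). The groups did not overlap in this transcript cluster, whereas its dimmer transcript cluster (mean signal 4.49) gave 0.18 (SE 0.16). The P of the brighter transcript cluster rose above 0.05 without SAM replicate 2, Control replicate 1 or Control replicate 2. NSD1 had -0.21 (SE 0.17), NSD2 -0.09 (SE 0.16), and SETD2, which alone adds the third methyl group to H3K36 in transcribed genes, -0.09 (SE 0.15, 95% interval -0.44 to 0.25). The H3K36 erasers KDM2A and KDM2B had -0.17 (SE 0.14) and -0.13 (SE 0.17), and KDM8 had -0.02 (SE 0.13). Among the H4K20 enzymes, KMT5B gave 7.08, 7.16 and 6.93 in SAM arrays against 7.50, 7.35 and 7.22 in Control arrays (-0.30, SE 0.14), without overlap. KMT5C, the second enzyme of di- and trimethylated H4K20, had 0.12 (SE 0.13), and KMT5A, which monomethylates H4K20, -0.10 (SE 0.13).

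The other SET proteins besides SETD5 and most PRDM genes had values near 0. The 8 other SET and MYND domain proteins, SETD5 included, had a median of 0.02, with 5 positive. SETD3, a methyltransferase of actin histidine, had the highest of them, with 8.60, 8.52 and 8.68 in SAM arrays and 8.60, 8.32 and 8.34 in Control arrays (0.18, SE 0.13). PRDM genes encode zinc finger proteins with a PR domain related to SET, and methyltransferase activity has been shown for only some of them. Their median was 0.00 over 11 genes. PRDM7, a primate-specific copy of the meiotic PRDM9, had the smallest P, with 3.74, 3.54 and 3.61 in SAM arrays against 3.94, 4.05 and 3.85 in Control arrays (-0.32, SE 0.13, adjusted p = 0.619 in limma). These signals lay below the array medians, and the P of PRDM7 stayed under 0.05 only without SAM replicate 1 or Control replicate 3. PRDM9, whose near-identical sequence the probes may share, had a log2 fold change of the other sign (0.20, SE 0.20). PRDM10 gave 5.85, 5.98 and 6.03 in SAM arrays against 6.28, 6.04 and 6.31 in Control arrays (-0.25, SE 0.13), without overlap. PRDM8 had -0.35 (SE 0.19), and the remaining PRDM genes lay between -0.18 and 0.12.

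**Figure D3:**
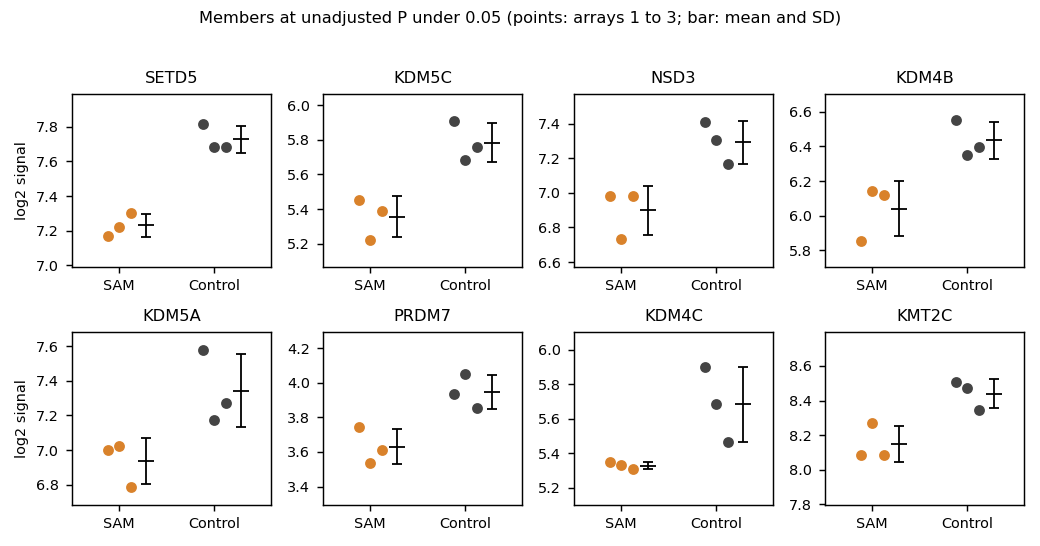
Log2 signal (y axis, spanning 1 log2 unit in each panel) of the 8 members with an unadjusted P under 0.05, in order of P, in 3 SAM arrays and 3 Control arrays; points are arrays and bars give the mean and SD. In each panel the 3 SAM arrays lie below the 3 Control arrays.

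The proteins that act in complexes with these enzymes were listed by complex. Of 43 partners and readers with a name on the array, 31 had a negative log2 fold change (median -0.07), 0 were called, and 5 (11.6%) had an unadjusted P under 0.05, all lower in SAM-treated cells. Among all named genes 54.2% were negative, and 8.22% had such a P (5.58% of named genes lower and 2.64% higher). All 8 named partners of KDM1A in the CoREST complex were negative (median -0.21). GSE1, a CoREST-associated protein, gave 6.34, 6.52 and 6.69 in SAM arrays against 6.92, 7.13 and 7.11 in Control arrays (-0.54, SE 0.14, adjusted p = 0.565 in limma). PHF21A (BHC80), which reads unmethylated H3K4, had -0.45 (SE 0.15), and RCOR2, a CoREST scaffold named here because its P was also under 0.05, -0.40 (SE 0.14), whereas HDAC1 and HDAC2 had -0.01 and -0.03. Of 14 COMPASS and MLL complex partners, 11 were negative (median -0.10). BOD1L1, which binds the SETD1A complex, gave 7.26, 7.34 and 7.34 in SAM arrays against 7.89, 7.94 and 7.64 in Control arrays (-0.51, SE 0.13, adjusted p = 0.565 in limma). NCOA6, a subunit of the KMT2C and KMT2D complexes, had -0.39 (SE 0.12), and the shared core subunit WDR5 0.29 (SE 0.18).

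The partners of PRC2 and of the H3K9 enzymes lay closer to 0. Of 9 PRC2 partners, 3 were negative (median 0.02), and those with the smallest P were LCOR (-0.24, SE 0.16) and EPOP (0.23, SE 0.15). Of 9 partners of the H3K9 enzymes, 6 were negative (median -0.04), with ZNF644 at -0.20 (SE 0.13) and the heterochromatin protein CBX3 at 0.17 (SE 0.12). The 3 Polycomb readers CBX2, CBX6 and CBX7 lay between -0.07 and -0.03. Of 9 lysine methylation enzymes and relatives with other names, 6 were negative and 3 positive (median -0.12). Groups did not overlap in 3 of them that were lower and 1 that was higher (44.4% of the 9). Among named genes 11.7% lay lower and 6.84% higher without overlap. JMJD1C, a relative of KDM3A and KDM3B, had the smallest P, with 7.63, 7.65 and 7.74 in SAM arrays against 8.14, 8.30 and 8.01 in Control arrays (-0.47, SE 0.13, adjusted p = 0.572 in limma). PHF2 and PHF8, relatives of KDM7A, both had -0.24 (SE 0.12 and 0.13). The JmjC proteins RIOX2 and JMJD6 were positive, with 0.20 (SE 0.16) and 0.16 (SE 0.13), and JMJD6 lay higher without overlap, with 7.435, 7.476 and 7.432 in SAM arrays and 7.429, 7.154 and 7.272 in Control arrays.

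Members differ from other genes in their size, and size moved with the log2 fold change across the array. This comparison was chosen after the values had been seen, over genes at or above the median signal of all transcript clusters (4.81). The median genomic span from start to end of the gene was 53.2 kb for 34 writers and 83.9 kb for 17 erasers, against 26.5 kb for 9456 named protein-coding genes. Across those 9456 genes, which share the same 6 arrays, the Spearman correlation of span with log2 fold change was -0.207. Among genes under 20 kb, 52.1% had a negative log2 fold change (median -0.01), and among genes over 100 kb 74.2% did (median -0.14). Groups lay lower without overlap in 10.2% of genes under 20 kb and 28.6% of genes over 100 kb. Of 10 writers over 100 kb, 8 were negative (median -0.09), and of 6 erasers over 100 kb all 6 were (median -0.29). Groups lay lower without overlap in 3 of these writers (30%) and 3 of these erasers (50%). At 50 to 100 kb this held for 2 of 8 writers (25%), 4 of 7 erasers (57.1%) and 16.7% of named protein-coding genes. Between 50 and 100 kb the medians were -0.02 for 8 writers, -0.28 for 7 erasers and -0.08 for named protein-coding genes, and between 20 and 50 kb they were -0.14 for 8 writers, -0.32 for 3 erasers and -0.04 for named protein-coding genes. The part of span in the writer and eraser values was not tested.

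**Figure D4:**
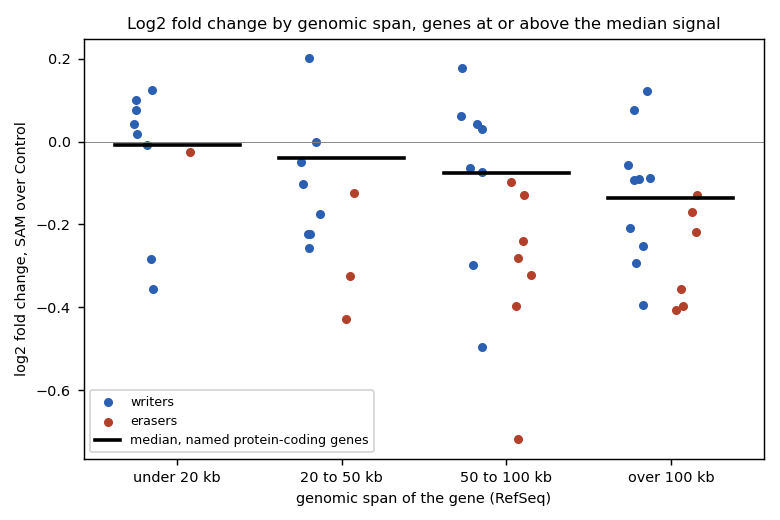
Log2 fold change (SAM over Control, y axis) of writers (blue, 34 genes) and erasers (red, 17 genes) by genomic span of the gene (x axis, 4 ranges); black bars give the median of named protein-coding genes in each range, all at or above the median signal. The bars go down from -0.01 under 20 kb to -0.14 over 100 kb, and all but 1 of the erasers over 20 kb lie below the bar of their range.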

How the data were processed

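Total RNA of 3 SAM-treated and 3 Control cultures was hybridised to Affymetrix Human Gene 2.0 ST arrays. The authors ran RMA through oligo of Bioconductor (version not given in the sources used here), so that the deposited values are log2 signal intensities for 53617 transcript clusters, with no filter stated. The table was used as deposited. The number of arrays limits the precision.

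SAM was compared with Control with limma 3.58.1 (lmFit, eBayes; R 4.3.3) over all transcript clusters, without covariate or block, with Benjamini-Hochberg adjustment over all of them. Gene symbols came from the platform annotation (16098 transcript clusters). On simulated data for all 53617 transcript clusters, the thresholds called 22 of 50 that had been changed 1.5-fold and 43 of 50 changed 2-fold. A change of 1.5-fold equals the fold minimum, so noise alone puts many of those 50 under it. The changed transcript clusters were drawn from all of them (median SE 0.165, against 0.137 for members), so these counts do not give the sensitivity for members. The members and gene lists were chosen with earlier results of these data known. The genes named are all members at an unadjusted P under 0.05, the pair with the smallest P in each class or partner list, and EZH1, EZH2, KDM6A, KDM6B, KDM1A, SETD2 and EHMT2; others given with values were added after their values were seen. The alternatives were other filters, normalizations, moderation and fold minimum, a replicate block, averaged transcript clusters and each array left out. Promoter sequences and gene spans came from RefSeq (GRCh38.p14), and the files name no build.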

Additional observations from a re-analysis of the deposited data

How the results depend on the processing

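No member passed both thresholds (0 higher, 0 lower) under any filter, normalization, moderation, block or array left out that was tried. With P under 0.01 and either no fold minimum or one of 1.2, 1 of 61 members was lower (SETD5). The share of named genes under these looser rules is not given here, so this count has no background beside it. The members at an unadjusted P under 0.05 numbered 8 lower and 0 higher, beside 7.99% of all transcript clusters in either direction. Leaving out 1 array gave 3 (without Control replicate 1) to 9 lower and 0 to 1 higher (KDM4A-AS1 without SAM replicate 3). The share of all transcript clusters then ran from 5.24% to 9.19%. SETD5 and KDM5C were among the members at this P in all 6 cases. The replicate numbers could not be shown to pair the arrays, since deviations from the group means gave correlations of -0.00267, -0.0748 and 0.109 for same-numbered arrays. With the replicate number as a block, 6 members had a P under 0.05, all lower, beside 7.87% of all transcript clusters, and 0 members were called. The writer median lay between -0.11 and -0.03 and the eraser median between -0.30 and -0.22 over all settings. Repeated quantile normalization and cyclic loess both gave a writer median of -0.03 and an eraser median of -0.24, beside -0.01 for named genes. The log2 fold change of EZH2 ran from -0.163 (without SAM replicate 1) to 0.0162 (without SAM replicate 2), a change of sign. Over all transcript clusters 582 were called, against 359 without the dimmer ones, 165 among those with a symbol alone (fewer were tested in both cases) and 934 without Control replicate 2.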

Other observations

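Of the 5 noncoding transcripts named for a neighbouring gene, 3 had positive and 2 had negative log2 fold changes. KDM4A-AS1, antisense to KDM4A, gave 5.79, 5.47 and 5.03 in SAM arrays and 4.84, 5.17 and 5.17 in Control arrays (log2 fold change 0.37, SE 0.21, adjusted p = 0.681 in limma), where KDM4A itself had -0.24. SAM replicate 3 lay inside the range of the Control arrays. KMT2E-AS1 had -0.14 (SE 0.13), and its SAM arrays (5.28 to 5.39) lay just below its Control arrays (5.41 to 5.64). PRDM16-DT and KDM7A-DT had log2 fold changes of 0.16 (SE 0.16) and 0.07 (SE 0.12), and PRDM10-DT had -0.08 (SE 0.26). None (0) of the 5 had an unadjusted P under 0.05 in limma.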
